A study of Mus musculus with 6 samples.

Results

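The question was whether a knockdown of Brca2 RNA in pancreatic cancer cells came with a change in the RNA of their protein-folding machinery. To this end the chaperone genes of the cytosol and the mitochondria were read together with the heat shock factors. The genes were chosen by symbol: the Hspa, Hspb, Hspd, Hspe, Hsph and Hsp90 symbols, the J proteins (Dnaja, Dnajb, Dnajc), the CCT ring (Cct), the BAG proteins and the heat shock factors (Hsf). Of the 72 matching genes, 6 were left out by name, among them the endoplasmic reticulum (ER) chaperones, which leaves 66 of the 10616 genes in the table. The symbol rule still admits some genes that act elsewhere, such as Dnajc10 in the ER and Hspb11, an intraflagellar transport protein. It also groups Hspbp1, a nucleotide exchange factor of HSP70, with the small heat shock proteins by its symbol alone. Dnaja1 and Dnajb4 were not analysed here.

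The samples were 6 bulk RNA libraries of KPC cells, a mouse line of pancreatic ductal adenocarcinoma. In 3 libraries the cells carried a short hairpin RNA against Brca2 (shBrca2), and in the other 3 a control hairpin (shControl). Cells of each group received their hairpin by lentivirus, were selected with puromycin and sorted as live cells, so each group shares the infection, the drug and the sort, and a knockdown in a single cell line is the model. The libraries were 3' end libraries made by a variation of MARS-seq, which captures poly(A) RNA. Replicate numbers are only names here, given in the order of the sample records within each group, and pair no libraries. The labels do not say whether the 3 libraries of a group came from separate cultures, so the p-values measure the spread between these libraries, which may be technical.

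Chaperones bind unfolded proteins and help them fold, keep them from aggregating or pass them on for degradation. HSP70 proteins work in cycles of ATP use, J proteins deliver clients to them and stimulate the ATPase, and BAG proteins and HSP110 release the nucleotide. HSP90 finishes the maturation of kinases and receptors, and the CCT ring folds actin and tubulin. HSF1 is the transcription factor that raises many of these genes under heat or proteotoxic stress, by binding heat shock elements in their promoters. Tumour cells are known to depend on HSF1 and on its chaperone targets.

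Library totals ranged from 1519340 to 2452467 counts. Brca2 itself had 10, 11 and 14 raw counts under the Brca2 hairpin and 33, 52 and 33 under the control hairpin, a log2 fold change of -1.61 ± 0.44 (SE, DESeq2, adjusted p = 0.029). The call of Brca2 was lost without shBrca2 replicate 2 (adjusted p = 0.15), shBrca2 replicate 3 (0.23) or shControl replicate 2 (0.37), with the estimate between -1.70 and -1.46. Of 10 epithelial markers, 9 were in the table, and their summed level lay at 16786 to 17616 normalised counts in shBrca2 and at 17679 to 18852 in shControl, so the sums did not overlap. Of these 9, only Krt7 and Sox9 were called, both higher in shBrca2 (log2 fold changes of 1.21 and 1.20). They thus went against the sum, which was lower in shBrca2. What part these marker differences have in the results was not tested. Of the fibroblast and leukocyte markers only Col1a2 and Cd68 were in the table, at 7.91 to 22.2 and 11.1 to 20.4 normalised counts, and 0 of 3 endothelial markers was in it. The acinar markers Prss2 and Cela1 summed to 34.1 to 64.4 in all. On the first principal component, 41.3% of the variance, shControl replicate 3 stood apart at 0.745 against -0.419 to 0.253 in the other libraries. Estimates without it are given for Dnajc10, Hspa4, Hspa9, Hspb1, Cct2, Hspa5, Ptges3, Tomm70a and Ppid.

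Few of the chaperone genes passed the test between shBrca2 and shControl cells. Of the 66 members, 33 had a higher and 33 a lower estimate in shBrca2, and the median log2 fold change was 0.00076, against -0.00034 over all genes. Summed, the members took 1.41% ± 0.0374 (SD, n = 3) of all counts in the shBrca2 group and 1.40% ± 0.0446 (SD, n = 3) in the shControl group. In bulk samples, fewer cells of a type and less RNA per cell cannot be told apart. Calls required 3 marks: a DESeq2 adjusted p below 0.1, a log2 fold change beyond 0.5 in either direction and a mean normalised count (base mean) above 5. The only member that passed was Dnajc10, against 1.27% of the tested genes.

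By direction, 1 member was called higher, against 0.77% of genes, and 0 were called lower, against 0.5%. With edgeR, which kept 60 of the members, the count was again 1 higher, Dnajc10, and 0 lower. In edgeR 3 of the other 59 had an unadjusted p under 0.05, and the edgeR share over all genes is not given here. At an unadjusted p under 0.05 in DESeq2 stood 3 members (4.55%), namely Dnajc10 and Hspb1 with higher and Dnajc15 with lower estimates, against 8.33% of all genes. With a base mean of at least 100 there were 2 of 40 members (5%), against 12.8% of all genes with such a base mean. The 3 shBrca2 values lay wholly above the 3 shControl values in 4 members (6.06%, against 10.2% of genes) and wholly below them in 5 (7.58%, against 10.1%). The share of members past each of these marks was thus near to or under that of the table.

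**Figure D1:**
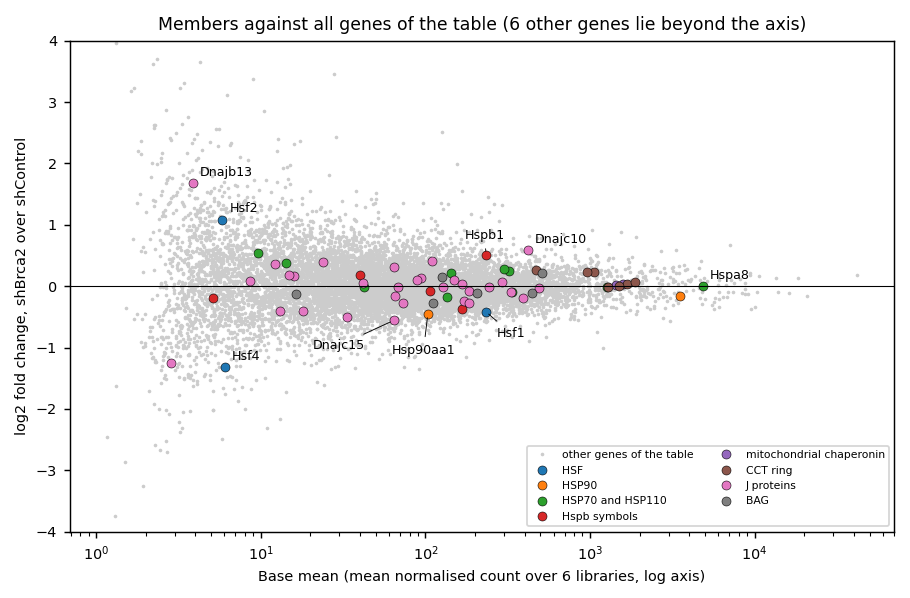
Each point is a gene, with its mean normalised count over 6 libraries on a log axis against its log2 fold change, shBrca2 over shControl; coloured points are the 66 members by family and grey points the other genes. The members lie along the 0 line and widen only at low counts, where Hsf2, Hsf4 and Dnajb13 are found.

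How large a change the data could still hold is given by the 95% intervals of the log2 fold changes. For 48 of the 66 members (72.7%) the interval lay within 1 log2 unit of 0, against 58.3% of all genes, and for 18 members (27.3%, against 12.7%) within 0.5. Deeper coverage makes intervals narrower. The 40 members with a base mean of at least 100 were therefore also set beside the 3774 genes with such a base mean. The members were still the deeper set, with a median base mean of 310 against 218, so depth was not fully matched. Among these, 97.5% of the members and 94.6% of the genes had intervals within 1, and 45.0% and 35.3% within 0.5. The median absolute log2 fold change was 0.129 in these members and 0.173 in these genes.

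**Figure D2:**
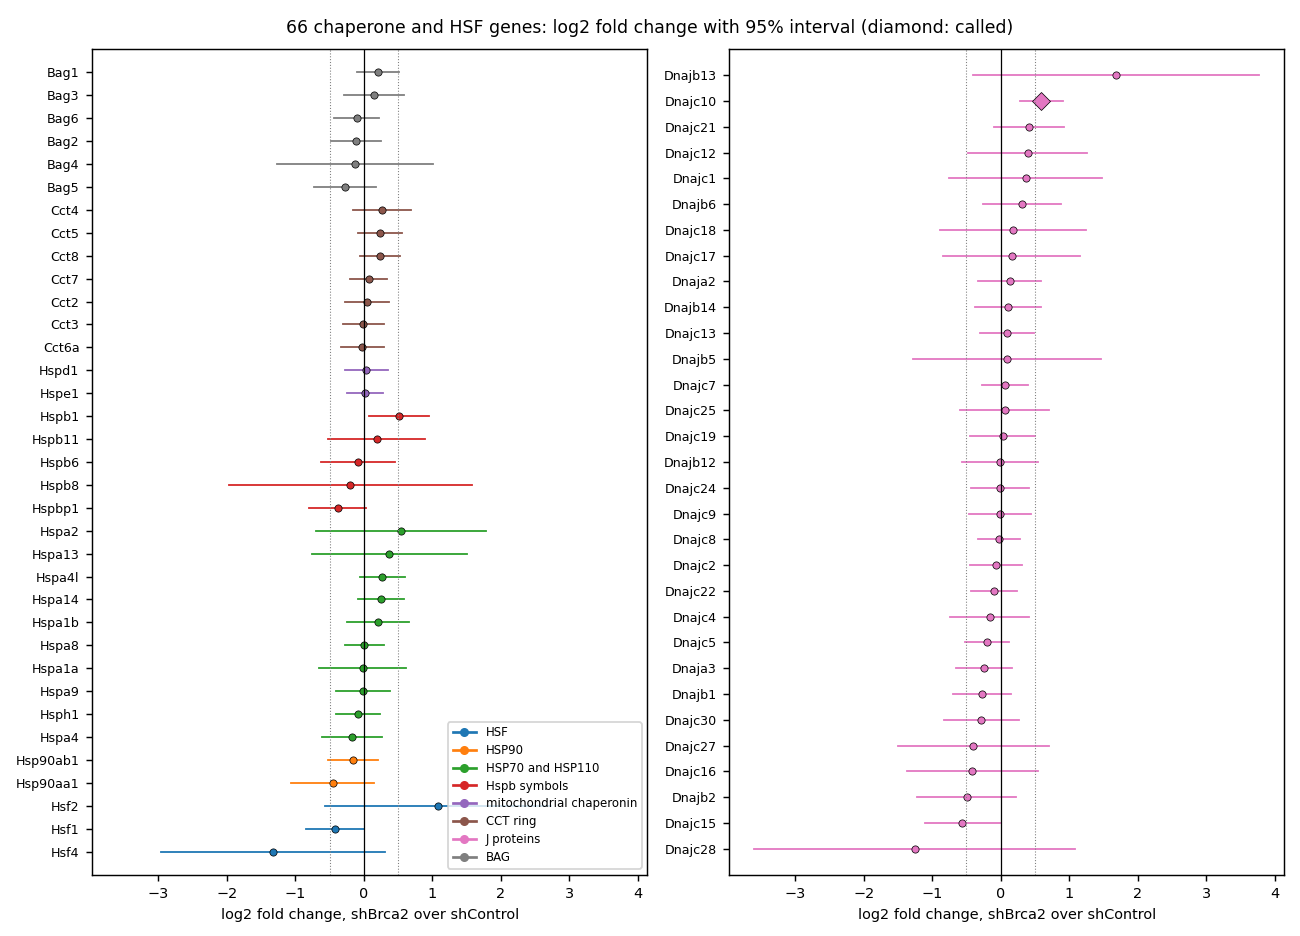
Each row is a member, with its log2 fold change (point) and 95% interval (line), the families on the left and the J proteins on the right; dotted lines mark 0.5 log2 units to each side of 0. Only Dnajc10 (diamond) is called, and the widest intervals belong to members with few counts such as Dnajb13 and Dnajc28.

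Because HSF1 acts through promoter elements, the heat shock elements of the members are shown before their values. The element was searched as 3 inverted units, GAA, TTC and GAA with NN between the units or TTC, GAA and TTC with NN between the units, a pattern that covers both strands, in RefSeq promoter windows of 300 bases (250 before to 50 after the start, build GRCm38.p6). Of the 66 members, 51 had a window, and 4 of these (7.84%) held an exact element, against 0.662% of all 27025 genes with a window. With 1 mismatch in the 9 fixed letters allowed, 13 members (25.5%) and 8.15% of the genes held it. Hspe1 and Hspd1 share the same site but are counted separately, as are Hspa1a and Hspa1b with their near-identical upstream bases. The 27025 genes are not limited to the 10616 genes of the count table. A match is a description of these letters, not of binding. Bag4, Cct4, Dnajc12, Dnajc18, Dnajc2, Dnajc22, Dnajc30, Dnajc5, Hsf1, Hsf4, Hsp90aa1, Hsp90ab1, Hspa13, Hspa8 and Hspa9 had no window in the table used.

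The 4 genes with an exact element were Hspe1, Hspd1, Dnajb6 and Hsph1. They are printed 5′ to 3′ on the strand of the gene, with the overlapping elements in capitals, because they hold the exact matches and because Hspe1 and Hspd1 read the same element from opposite strands.
Hspe1, chr1:55088053-55088082, plus strand: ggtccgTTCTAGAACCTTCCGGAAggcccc
Hspd1, chr1:55088053-55088082, minus strand: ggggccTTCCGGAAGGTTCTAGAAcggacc
Dnajb6, chr5:29735841-29735870, plus strand: ctcagcTCCGAGAATCTTCCGGAAcgctag
Hsph1 upstream, chr5:149636346-149636375, minus strand: gaatctTTCTCGAAGGCTCGAGAAgaagga
Hsph1 downstream, chr5:149636287-149636311, minus strand: aatgctGCAGATTCTGGAAAGTTCt
The stretch of Hspe1 begins its element 89 bases before the start, that of Hspd1 144 bases and that of Dnajb6 51 bases before it, while Hsph1 holds a stretch 33 bases before the start, whose 2 overlapping matches each have 1 mismatch, and another 32 bases after it. Dnajb6 and Hsph1 also had a window at another annotated start. From that start the Dnajb6 stretch began 132 bases before, and the Hsph1 stretches 54 bases before and 11 after. In Dnajb6 and in the downstream stretch of Hsph1, 1 of the 2 overlapping matches is exact and the other has 1 mismatch.

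Of the genes with 1 mismatch, the inducible HSP70 gene Hspa1a and the small heat shock protein gene Hspb1 are shown with their 160 upstream bases, the elements in capitals.
Hspa1a, chr17:34972157-34972316, minus strand: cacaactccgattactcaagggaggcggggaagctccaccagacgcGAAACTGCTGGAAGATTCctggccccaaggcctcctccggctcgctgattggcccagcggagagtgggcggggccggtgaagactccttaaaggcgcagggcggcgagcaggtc
Hspb1, chr5:135887759-135887918, plus strand: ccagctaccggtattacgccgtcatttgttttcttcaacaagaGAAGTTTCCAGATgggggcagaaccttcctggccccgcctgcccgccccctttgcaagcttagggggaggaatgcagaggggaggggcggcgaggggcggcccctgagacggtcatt
The upstream stretch of Hspa1b, its neighbour on chromosome 17, was identical to that of Hspa1a at 159 of 160 bases.

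Members with these elements are described by their counts and medians. The 13 members with an exact or 1-mismatch element had a median log2 fold change of 0.014, with 7 higher and 6 lower estimates and 0 called by DESeq2 (1 at an unadjusted p under 0.05, Hspb1). The 4 exact ones had a median of 0.026. The 38 members whose windows held neither had a median of 0.063, with Dnajc10 called. This split follows the letters of the windows and does not separate HSF1 targets from other members. Dnajb1 and Bag3, both described below as HSF1-driven, were among the 38. Hsp90aa1, Hsp90ab1 and Hspa8 had no window and were in neither group.

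Hsf1, on chromosome 15 (76477362 to 76501155, GRCm38.p6), had 218, 240.1 and 142 normalised counts with shBrca2, against 301, 258 and 239 with shControl. The shBrca2 libraries were on the whole the lower ones, but the highest of them lay just above the lowest shControl library, so the groups overlapped slightly. The log2 fold change was -0.42 ± 0.22 (SE, adjusted p = 0.59), and the 95% interval ran from -0.84 to 0.0066. Without shBrca2 replicate 3, the lowest library, the estimate was -0.21, the end nearest to 0 of a leave-one-out range from -0.58 to -0.21. Hsf1 was not called, and its messenger RNA says nothing of the activity of the protein, which is set by trimer formation and modification.

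Hsf2, a factor that can pair with HSF1, had 5.45, 10.4 and 7.83 normalised counts in shBrca2 and 2.02, 3.35 and 5.93 in shControl. Hsf4, best known from the lens, had 4.09, 2.84 and 3.48 in shBrca2 and 10.1, 5.87 and 9.89 in shControl. The Hsf4 groups did not overlap and those of Hsf2 did. At a base mean near 6 the fits were wide: 1.08 ± 0.84 for Hsf2 (adjusted p = 0.84) and -1.32 ± 0.83 for Hsf4 (adjusted p = 0.72). Both therefore allow a large difference or none.

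Heat shock protein 90 has an inducible cytosolic form, Hsp90aa1, and a constitutive one, Hsp90ab1. Hsp90ab1 had 2954, 4461 and 2548 normalised counts in shBrca2 and 3341, 3964 and 3816 in shControl. The shBrca2 libraries held both the lowest and the highest value (log2 fold change -0.16 ± 0.19, adjusted p = 0.92). Hsp90aa1 had 96.7, 106 and 59.2 in shBrca2 and 179, 96.4 and 83.1 in shControl. A single shControl library, replicate 1, stood above the others, and the groups overlapped (-0.46 ± 0.31, adjusted p = 0.77). The ratio of Hsp90aa1 to Hsp90ab1 counts within a library lay at 0.0327, 0.0237 and 0.0232 in shBrca2 and at 0.0535, 0.0243 and 0.0218 in shControl, again with replicate 1 of shControl as the highest. Without that library Hsp90aa1 stood at -0.051, the estimate nearest to 0 in its leave-one-out range.

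The HSP70 and HSP110 genes numbered 10, of which 6 had higher and 4 lower estimates and 0 were called (0 at an unadjusted p under 0.05), with a median log2 fold change of 0.11 and a range from -0.17 to 0.55. Hspa8, the constitutive HSP70, was the member with the most counts, at 4880.5, 4809 and 4827 in shBrca2 and 3951, 5204 and 5299 in shControl. The 3 shBrca2 libraries lay close together inside the shControl spread (0.01 ± 0.15, adjusted p = 0.99). Its interval of -0.28 to 0.29 on the log2 scale is a ratio of 0.823 to 1.23.

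Hspa1a and Hspa1b are the stress-inducible HSP70 genes. Hspa1a had 36.8, 42.5 and 46.1 normalised counts in shBrca2 and 42.4, 37.7 and 47.5 in shControl. Hspa1b had 132, 130.4 and 198 in shBrca2 and 151, 122 and 129.5 in shControl. The Hspa1a groups overlapped throughout (-0.01 ± 0.32, adjusted p = 0.99), and for Hspa1b 1 library, shBrca2 replicate 3, lay above all others (0.21 ± 0.23, adjusted p = 0.91). These are near-identical copies, so the split of reads between them is uncertain. Hspa1a took 18.9% to 26.8% of the counts of the pair across the libraries.

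The HSP110 genes, exchange factors of HSP70, were Hsph1, Hspa4 and Hspa4l. Hsph1, a strongly HSF1-dependent gene, had 331, 337 and 312 normalised counts in shBrca2 and 319, 359 and 363 in shControl (-0.09 ± 0.16, adjusted p = 0.96). Hspa4 had 131, 130.4 and 120.1 in shBrca2 and 131, 122 and 176 in shControl, so 1 library, shControl replicate 3, was high (-0.17 ± 0.22, adjusted p = 0.93). Without that library it stood at 0.0042. Hspa4l had 308, 307 and 365 in shBrca2 and 289, 257 and 266 in shControl, and its groups did not overlap. The estimate of 0.27 ± 0.17 did not pass (adjusted p = 0.72).

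**Figure D3:**
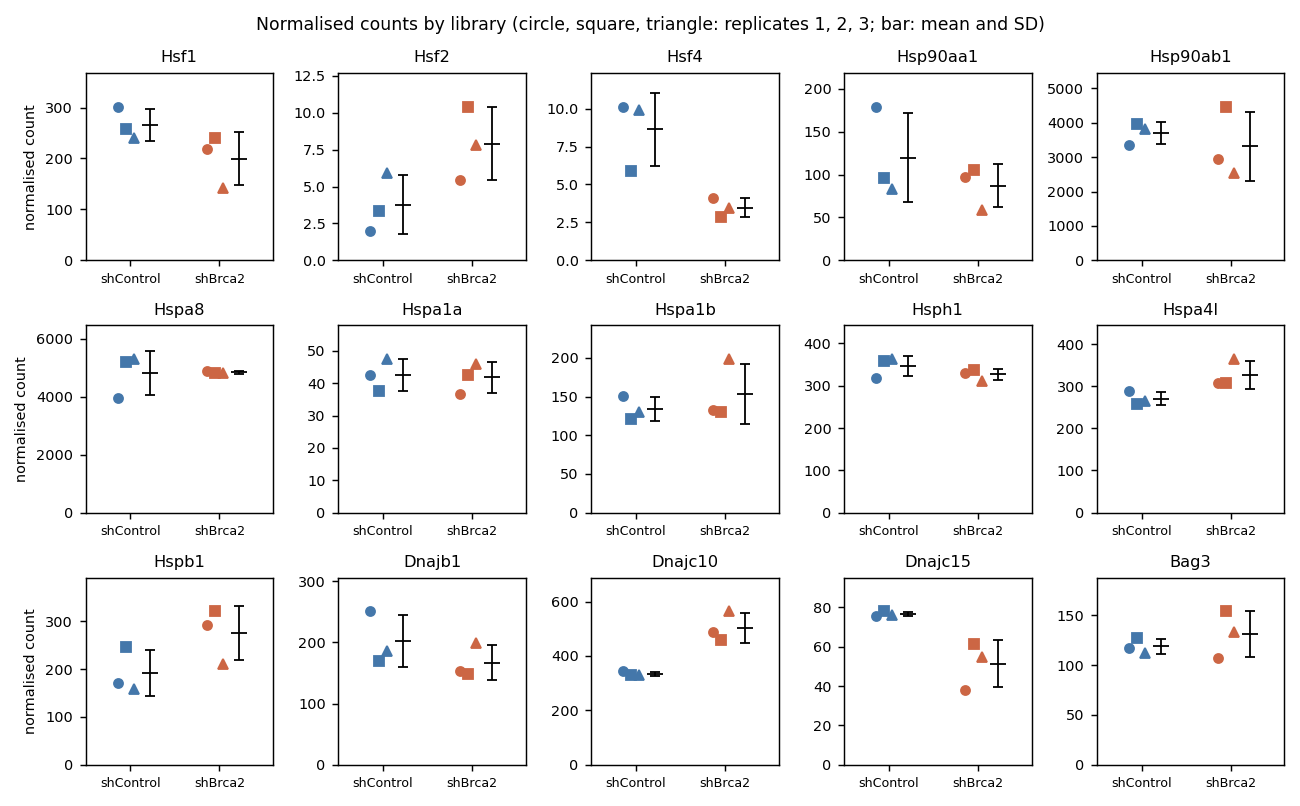
Normalised counts of 15 members in each library, shControl in blue and shBrca2 in orange, with circle, square and triangle for replicates 1, 2 and 3 and a bar for the mean and SD of each group (n = 3); every axis starts at 0. The 3 shBrca2 libraries lie above the shControl libraries for Dnajc10 and Hspa4l and below them for Dnajc15 and Hsf4, and the other 11 genes overlap.

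Of the 5 Hspb symbols, 2 had higher and 3 lower estimates, with 0 called. Hspb1, the small heat shock protein that holds unfolded clients, had 293, 320.5 and 211 normalised counts in shBrca2 and 172, 247 and 158 in shControl. The lowest shBrca2 library lay under the highest shControl library, so the groups overlapped. The fold was 1.43, with an interval from 1.05 to 1.93 (log2 0.51 ± 0.22), and it did not pass after adjustment over all genes (adjusted p = 0.44). Without shControl replicate 3, its lowest library, the log2 fold change was 0.39 ± 0.25 (DESeq2, adjusted p = 0.87). Hspbp1 had 153, 162 and 123 in shBrca2 and 193, 158 and 217 in shControl (-0.38 ± 0.21, adjusted p = 0.65), with overlap of the groups. Hspb6, abundant in muscle, had 139, 99.3 and 73.1 in shBrca2 and 81.8, 134 and 111 in shControl, which overlapped widely. Hspb8, which works with Bag3 in clearing aggregates, had few counts, at 4.09, 7.56 and 2.61 in shBrca2 and 9.09, 2.52 and 4.94 in shControl.

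The mitochondrial chaperonin is a ring of Hspd1 (HSP60) capped by Hspe1 (HSP10), whose genes share the promoter shown above. Hspd1 had 1611, 1314 and 1883 normalised counts in shBrca2 and 1741, 1502 and 1442 in shControl. Hspe1 had 1445, 1506 and 1389.7 in shBrca2 and 1397, 1343 and 1557 in shControl. Neither gene differed beyond the spread of its libraries, with log2 fold changes of 0.04 ± 0.16 and 0.01 ± 0.14 (adjusted p = 0.99 each) and intervals within 0.5 of 0. Their balance differed from library to library: the ratio of Hspe1 to Hspd1 counts was 0.897, 1.15 and 0.738 in shBrca2 and 0.803, 0.894 and 1.08 in shControl. Hspa9, the HSP70 of mitochondria, had 1249, 1013 and 1518 in shBrca2 and 1609, 1282 and 935 in shControl. Its lowest and highest values were both shControl libraries (-0.02 ± 0.20, adjusted p = 0.99), and without shControl replicate 3 it stood at -0.20 ± 0.20.

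The CCT ring was read from 7 subunit genes, all of them with intervals within 1 log2 unit of 0 and 4 within 0.5. Of these, 5 had higher and 2 lower estimates, from -0.02 (Cct6a) to 0.27 (Cct4), with a median of 0.072 and 0 called or at an unadjusted p under 0.05. Cct7 had 1862, 1839 and 2042 normalised counts in shBrca2 and 1753, 1994 and 1716 in shControl (0.07 ± 0.14, adjusted p = 0.96). Cct2 had 1572, 1482 and 2083 in shBrca2 and 1724, 1795 and 1474 in shControl (0.04 ± 0.16, adjusted p = 0.99). In shBrca2 replicate 3, 5 of the 7 subunits had their highest value, and in shControl replicate 3, 4 of the 7 had their lowest. The summed CCT counts were 8865, 8349.7 and 10084 in shBrca2 and 8977, 9000 and 7722 in shControl. Without shControl replicate 3 the Cct2 estimate was -0.041. Tcp1, the subunit that the symbol rule does not reach, was at -0.11.

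**Figure D4:**
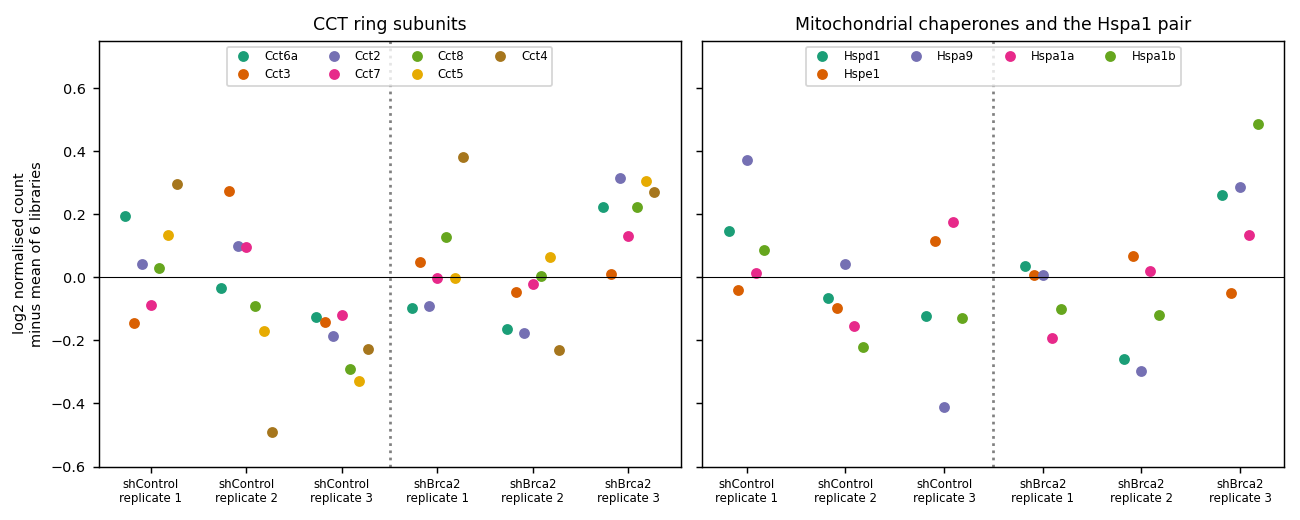
log2 normalised count of each gene minus its mean over the 6 libraries, for the 7 CCT subunits (left) and for the mitochondrial chaperones and the Hspa1 pair (right), with shControl libraries before shBrca2 libraries. All 7 CCT points lie under 0 in shControl replicate 3 and above 0 in shBrca2 replicate 3, while the first 2 libraries of each group scatter about 0.

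J proteins are the largest family, with 31 members (2 Dnaja, 7 Dnajb and 22 Dnajc), of which 15 had higher and 16 lower estimates and the median log2 fold change was -0.011. Dnajc10, on chromosome 2 (80315446 to 80354055, GRCm38.p6), encodes a reductase of the ER that unties wrongly formed disulphide bonds for ER-associated degradation. It had 489, 458 and 564 normalised counts in shBrca2 and 344, 330.4 and 328 in shControl, so every shBrca2 library lay above every shControl library. The fold was 1.51 with an interval from 1.21 to 1.88 (log2 0.59 ± 0.16, adjusted p = 0.029), and the gene passed under every test, scaling and filter tried on all 6 libraries. The call was lost without shBrca2 replicate 3 (adjusted p = 0.21), shControl replicate 2 (0.26) or shControl replicate 3 (0.16), while the estimate kept within 0.50 to 0.66. Without shControl replicate 3 the log2 fold change was 0.58 ± 0.19.

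Dnajc10 acts in the ER, and the ER chaperones that the rule leaves out are given beside it. Of 5 (Hspa5, Hsp90b1, Dnajb9, Dnajb11 and Dnajc3) 4 had higher and 1 a lower estimate, with 0 called by DESeq2 or edgeR and 0 at an unadjusted p under 0.05 in DESeq2, and a median of 0.10. Hspa5, the HSP70 of the ER, varied more between libraries than between groups: shControl replicate 3 held 136 normalised counts, and the other 5 libraries 501 to 903. The log2 fold change of 0.68 ± 0.70 was not called, and without shControl replicate 3 it was 0.24 ± 0.25. The member genes placed in the ER from textbook knowledge (Dnajc10, Dnajc1, Hspa13, Dnajb12 and Dnajb14) had 4 higher and 1 lower estimates. Only Dnajc10 itself, 1 of the 5 (20%, against 8.33% of all genes), stood at an unadjusted p under 0.05. This list was made after the values were seen and may not be complete, so no trend is read from the split.

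Dnajc15, a J protein of the mitochondrial inner membrane that aids protein import, went the other way. It had 38.1, 61.4 and 54.8 normalised counts in shBrca2 and 75.8, 78.0 and 76.1 in shControl, without overlap. The log2 fold change was -0.56 ± 0.28, and it did not pass (adjusted p = 0.57). Among the 7 mitochondrial members 3 had higher and 4 lower estimates, with a median of -0.017.

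Dnajb1, the J protein partner of HSP70 and a classical HSF1 target, had 153, 147 and 199 in shBrca2 and 251, 169 and 186 in shControl. The groups overlapped, with shControl replicate 1 the highest (-0.27 ± 0.22, adjusted p = 0.85), and without that library the estimate was -0.09. Dnajc8, a spliceosome-associated J protein, was even at 485, 442 and 529.9 against 455, 506 and 522. The widest intervals belonged to members with few counts. Dnajb13, a J protein of sperm and cilia, had a base mean of 3.86, an estimate of 1.68 ± 1.07 and an interval of -0.41 to 3.77, and Dnajc28, at a base mean of 2.83, an interval of -3.60 to 1.09. These 2 received no adjusted p from DESeq2.

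The BAG proteins couple HSP70 to other pathways, and 2 of the 6 had higher and 4 lower estimates, with 0 called or at an unadjusted p under 0.05. Bag1, which links HSP70 to the proteasome, had 594, 539 and 507 normalised counts in shBrca2 and 467, 522 and 428 in shControl (0.21 ± 0.16, adjusted p = 0.83). The groups touched only between the lowest shBrca2 and the highest shControl library. Bag3, which is HSF1-induced and directs aggregates to autophagy, had 108, 154 and 133 in shBrca2 and 117, 127 and 113 in shControl (0.15 ± 0.22, adjusted p = 0.94). Bag6, which guides tail-anchored and misfolded proteins, had 460.4, 473 and 358 in shBrca2 and 453, 479.7 and 453 in shControl (-0.10 ± 0.17, adjusted p = 0.94).

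Partners of the chaperones that no symbol of the rule reaches were read from 4 lists, with 52 genes analysed here. DESeq2 called 0 of the 52 and edgeR 0 of the 51 it kept (9 at an unadjusted p under 0.05, with the edgeR share over all genes not given here). In DESeq2, 10 genes stood at an unadjusted p under 0.05 (19.2%, against 8.33% of all genes), 5 with higher and 5 with lower estimates. Among the 31 partners with a base mean of at least 100 there were 8 (25.8%), against 12.8% of all genes with such a base mean. These partners were the deeper set, with a median base mean of 370 against 218. The co-chaperones of HSP90 and HSP70 made up 6 of the 10. Ptges3, the p23 co-chaperone of HSP90, had an estimate of 0.71 ± 0.24 (adjusted p = 0.16), and Tomm70a, which receives chaperone-bound precursors at mitochondria, 1.18 ± 0.42 (adjusted p = 0.22). The prolyl isomerases of HSP90 split, with Ppid at 0.48 ± 0.24 and Fkbp4 and Fkbp5 at -0.36 ± 0.14 (adjusted p = 0.29) and -0.60 ± 0.27. Nudc was at -0.36 ± 0.17. Of the higher ones, Ptges3, Tomm70a and Ppid had their lowest value in shControl replicate 3, and without that library they stood at 0.53 ± 0.25, 0.84 ± 0.42 and 0.23 ± 0.22. Among the prefoldin and CCT cofactors Pdcl3 and Pdrg1 had higher and Pfdn6 lower estimates (0.38, 0.44 and -0.31), and of the mitochondrial partners Htra2, a protease, had -0.40 ± 0.16. The HSF1 regulators and other classical targets had 5 higher and 2 lower estimates of 7, with a median of 0.11 and 0 called or at an unadjusted p under 0.05. Of these, Clu, an extracellular chaperone, had -0.17 ± 0.15 (adjusted p = 0.87).

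By family, the median log2 fold changes were -0.42 for the heat shock factors, -0.31 for HSP90, 0.11 for HSP70 and HSP110, -0.087 for the Hspb symbols, 0.026 for the mitochondrial chaperonin, 0.072 for the CCT ring, -0.011 for the J proteins and -0.11 for BAG. The families furthest from 0, the heat shock factors and HSP90, had only 3 and 2 members. Some counts are uncertain beyond their error: 51 of the members overlap an annotated gene on the opposite strand and 16 one on the same strand, and whether counting used the strand is not stated. Among the named members with a same-strand neighbour are Hspbp1 (Ppp6r1), Bag3 (2610306O10Rik), Hsp90aa1 (Gm60091), Hspd1 (Gm5147) and Hspa8, which holds small nucleolar RNA genes.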

How the data were processed

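Poly(A) RNA of sorted live KPC cells was made into 3' end libraries and sequenced on a NextSeq machine. The submitters' processing notes name bcl2fastq, cutadapt, STAR 2.4.2a, HTSeq and DESeq2 and the build mm10. Use of molecular identifiers and the gene annotation are not given in the sources used here. The deposited values are raw counts by gene symbol and library, which the authors neither normalized nor pooled in this table. Whether they count reads or molecules is thus not known here. Intervals cover the model's error only.

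Members were matched by symbol, and normalised counts are counts over DESeq2 size factors. DESeq2 1.42.0 in R 4.3.3 tested group against an intercept by a likelihood ratio test on all 10616 genes, with Benjamini-Hochberg adjustment over the 9997 above the independent filter (base mean of 4.64). A gene was called as the study's methods state: adjusted p under 0.1, absolute log2 fold change over 0.5, base mean over 5. Fold changes set shBrca2 over shControl, without shrinkage. edgeR 4.0.16 was an alternative, and no batch was given or fitted. The script was tested on simulated data.

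The members, gene lists and tests were chosen with earlier results of these data known. Named by rule were Brca2, Clu, called members, members at an unadjusted p under 0.05, the 2 members per family with the highest base mean, and a list of well-known chaperones; list genes outside the members were named at that p. Other genes named (Hspb6, Dnajb6, Hspb11, Dnajb13, Dnajc28, Cct4, Cct6a, Tcp1, Krt7, Sox9, Hspa5 and the compartment lists), and the base mean of 100, were chosen after their values were seen. Positions and sequences are from RefSeq on GRCm38.p6, the assembly of mm10, and overlaps come from GENCODE vM39 (GRCm39), not necessarily the annotation behind the counts.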

Additional observations from a re-analysis of the deposited data

How the results depend on the processing

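All alternatives on all 6 libraries (edgeR, the Wald test, TMM factors, total counts, a mean of at least 10 counts, no independent filtering, an adjusted p under 0.05, no fold or base mean minimum) called 1 member, Dnajc10, as reported. Each library was also left out in turn, which leaves 2 libraries in that group. The count of members called then ranged from 0 to 1, the count of all genes called from 47 to 140, and the median member log2 fold change from -0.010 to 0.046. The call of Dnajc10 was lost without shBrca2 replicate 3, shControl replicate 2 or shControl replicate 3. Brca2 stayed lower, from -1.70 to -1.46, but its call was lost without shBrca2 replicate 2, shBrca2 replicate 3 or shControl replicate 2, with an adjusted p of up to 0.37. Of 302 comparisons of a named gene with an alternative, 19 changed sign, all of them on leaving out a library and all for genes that are not called. Their leave-one-out ranges were -0.18 to 0.016 for Bag6, -0.12 to 0.14 for Cct2, -0.093 to 0.039 for Dnajc8, -0.43 to 0.0021 for Hsp90ab1, -0.097 to 0.069 for Hspa1a, -0.026 to 0.31 for Hspa1b, -0.28 to 0.0042 for Hspa4, -0.12 to 0.077 for Hspa8, -0.20 to 0.18 for Hspa9, -0.094 to 0.16 for Hspd1 and -0.030 to 0.076 for Hspe1. The cause was not tested. No paired analysis was possible because the labels carry no replicate numbers, and those used here follow the order of the sample records within each group and pair nothing. Depth limits the members with few counts: Hsf2, Hsf4, Hspb8, Dnajb13 and Dnajc28 could differ severalfold or not at all within their intervals.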
